A study of Mus musculus with 28 samples.

Results

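The Snx29 locus was described as the 500 kb window of chromosome 16 from 11300001 to 11800000 (mm9), in ATAC-seq peak lists from 28 mouse libraries. ATAC-seq cuts open chromatin with a transposase, and a peak is a place where the released fragments pile up. The window held 913 of the 2048700 listed peaks. Merged over all libraries, these formed 102 of 253225 regions, where a region joins peaks that share at least 1 bp. The locus was chosen by the calls of 1 of its 5 bins of 100 kb, the fourth, from 11600001 to 11700000, in activated against quiescent satellite cells and in GFP against unsorted cells at day 8. Contrasts of those groups with each other are therefore given as a description, with no test. Unsorted libraries of day 8 also enter the tests made on the other 4 bins.

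The study followed mouse embryonic fibroblasts on their way to induced muscle progenitor cells, with 2 libraries in each of 14 groups. Whether paired libraries stem from different cultures or mice is not stated, so every spread and p-value covers library-to-library variation that may be technical alone. The satellite cells, which are the resident stem cells of muscle, were activated or quiescent and came from adult Pax7-nGFP mice of 10 to 12 weeks. The labels do not say for the activated libraries how the cells were activated. The fibroblasts came from E13.5 embryos with 3 alleles: Rosa-rtTA, through which doxycycline acts, Col1a1-tetO-MyoD, which it turns on to make the muscle regulator MyoD, and the nuclear reporter Pax7-nGFP. Day 0 cells carry these alleles too. Dox+FRG cultures received doxycycline at 2 µg/ml with forskolin at 5 µM, RepSox at 5 µM, the GSK3β inhibitor CHIR99021 at 3 µM and basic FGF at 10 ng/ml. They were taken as GFP cells at days 8 and 10, and unsorted at days 2, 4, 6 and 8. Dox cultures of days 4 and 8 were read as doxycycline with basic FGF and without the 3 small molecules, and FRG cultures of day 8 as the small molecules without doxycycline, FRG being read as their initials. Untreated fibroblasts of day 0 were the starting point. Cells labelled MEF10 were taken at day 6 as MyoD+FRG and as MN+FRG. The labels give no separate genotype for MEF10 and do not spell out MN. Each reaction held 60000 cells.

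SNX29 belongs to the sorting nexins, proteins with a PX domain that binds phosphoinositides on membranes and takes part in sorting cargo between compartments. It also carries a RUN domain, from which the older symbol Rundc2a comes. Its work in satellite cells is not well described, whereas leaving quiescence is known to bring growth, cell cycle entry and induction of MyoD and AP-1 factors. In the GRCm38.p6 gene table the gene spans 436235 bp and has Tnfrsf17 before it and Cpped1 after it among protein-coding neighbours. The table places 3 further entries within it, 2 pseudogenes and 1 lncRNA. No mm9 annotation was used, so regions are given by mm9 position and are not assigned to promoters, exons or introns. Marker loci of muscle cells and fibroblasts were not checked for the same reason.

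RefSeq lists 2 start sites for Snx29 on the plus strand, shown here because a peak at the lower end of the window was called in every library. Each sequence runs from 250 bases before to 50 bases after the start (GRCm38.p6), and their starts lie 82744 bp apart. Positions in the 2 builds were not compared. Capitals mark a match to TGANTCA, the AP-1 motif.
Snx29 promoter 1, chr16:11322654-11322953: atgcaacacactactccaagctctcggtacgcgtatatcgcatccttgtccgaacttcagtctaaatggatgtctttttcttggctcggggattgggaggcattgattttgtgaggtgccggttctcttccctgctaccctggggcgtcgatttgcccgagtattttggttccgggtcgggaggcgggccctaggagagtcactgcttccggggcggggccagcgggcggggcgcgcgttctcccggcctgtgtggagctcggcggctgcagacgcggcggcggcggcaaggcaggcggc
Snx29 promoter 2, chr16:11405398-11405697: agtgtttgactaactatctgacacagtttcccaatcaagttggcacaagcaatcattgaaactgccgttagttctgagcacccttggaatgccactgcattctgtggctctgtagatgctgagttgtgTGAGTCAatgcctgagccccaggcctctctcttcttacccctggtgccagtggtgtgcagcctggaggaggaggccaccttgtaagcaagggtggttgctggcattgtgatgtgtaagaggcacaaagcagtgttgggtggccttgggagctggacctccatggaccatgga
Promoter 1 was 63% G and C, and promoter 2 was 52.7%. TGANTCA, which reads the same on both strands, was found once in promoter 2 and not in promoter 1. Of 32851 RefSeq promoters of this length, 7.81% hold it. The E-box CANNTG, the core bound by MyoD, also reads the same on both strands and occurred in neither promoter, against 72.3% of all promoters. No match of 1 motif overlapped the other, and the absence of letters in these windows says nothing about binding elsewhere in the gene.

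The lists held 37301 to 134997 peaks, with no score, height or read count, so sequencing depth is unknown. Counts in the window are therefore also given per 100000 listed peaks. In all lists but 1, most peaks had the same width within a list, and that width lay between 61 and 205 bp. The exception was replicate 2 of MEF10 MyoD+FRG, whose most common width was 500 bp and whose peaks covered 47099 bases of the window, while no other library covered more than 15257. Its partner had the shortest list of all, so values of MEF10 MyoD+FRG are given per library. The wide peaks of replicate 2 also entered the merging, so the span of a region can follow them and join separate peaks of other libraries. Merged without replicate 2, 25 regions in place of 24 were called in both activated and neither quiescent library. In bulk cells, fewer cells with an open site and less opening per cell cannot be told apart.

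Per listed peak, activated satellite cells stood highest of all groups at the Snx29 locus, and quiescent satellite cells lowest. In unscaled numbers the mean of 38.5 peaks in activated cells was below those of Dox day 8 (64.5), FRG day 8 (57.5), Dox day 4 (49) and MEF10 MN+FRG (40.5), and quiescent cells shared the lowest mean of 8 with day 8 GFP cells. Activated cells had 37 and 40 peaks in the window, against 11 and 5 in quiescent cells. Per 100000 listed peaks this was 75.4 and 65.1 in activated cells, against 19.0 and 13.2 in quiescent cells. The groups did not overlap, and the mean differed by 2.13 on the log2 scale. Among 5084 windows of 500 kb along the genome, the locus ranked 18 by the mean of activated cells, 70.3 per 100000 where the median window had 16.9. By the mean of quiescent cells it ranked 2447, with 16.1 per 100000 where the median window had 15.2. The difference of 54.2 per 100000 between activated and quiescent cells was the highest of these 5084 windows. The locus was chosen on this contrast and the windows were laid in step with it, so these ranks only describe it.

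Within the window the difference was spread over 4 of the 5 bins. The first bin had 2 and 2 peaks in activated cells, against 1 and 1 in quiescent cells. The second had 6 and 8 peaks in activated cells, against 4 and 1 in quiescent cells. The third had 9 and 10 peaks in activated cells, against 4 and 3 in quiescent cells. The first bin was thus nearly level, and the third bin already stood apart. The fourth bin, on which the locus was chosen, had 10 and 10 peaks in activated cells and 0 in both quiescent libraries. The fifth had 10 and 10 peaks in activated cells, against 2 and 0 in quiescent cells. Only the fourth bin was empty in quiescent cells, and the fifth was empty in 1 of their libraries.

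**Figure D1:**
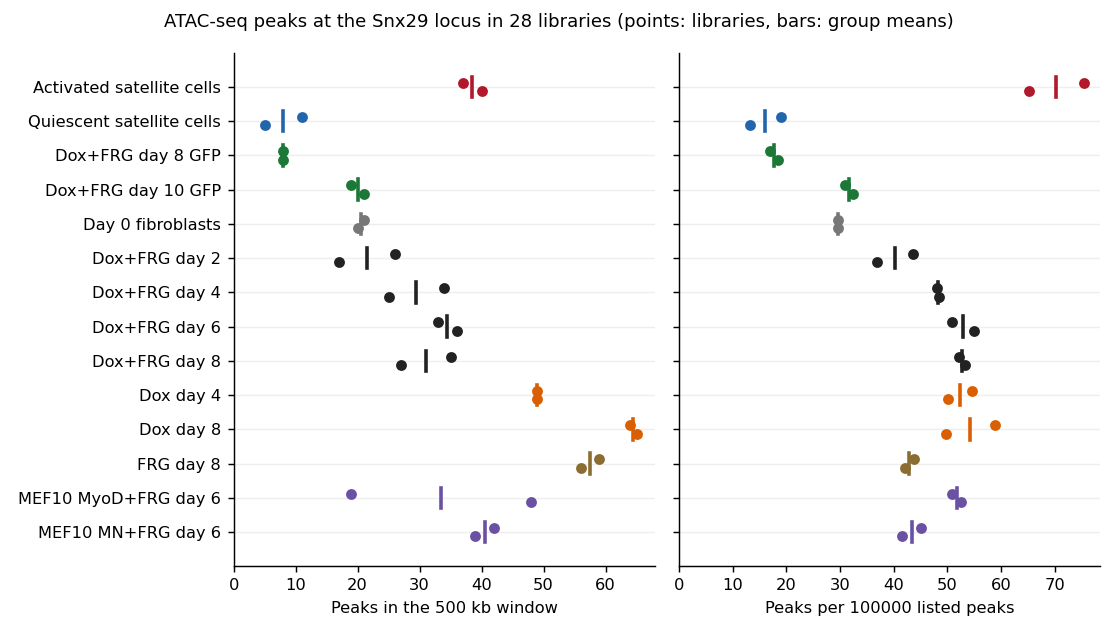
Peaks in the 500 kb Snx29 window per library (left axis panel, number of peaks) and per 100000 listed peaks (right panel). Points are libraries, bars are means of the 2 libraries of a group. Activated satellite cells, at 75.4 and 65.1 per 100000, lie to the right of every other library in the right panel, while the longer Dox and FRG lists lead in the left panel.

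The 14 groups formed steps when ordered by peaks per 100000 listed peaks, each as mean ± SD of n = 2. Activated satellite cells led with 70.3 ± 7.25 and did not overlap the next group. Dox day 8 (54.3 ± 6.54), Dox+FRG day 6 (52.9 ± 2.86), Dox+FRG day 8 (52.8 ± 0.801), Dox day 4 (52.3 ± 3.15) and MEF10 MyoD+FRG (51.7 ± 1.12) followed, and each of these overlapped its neighbour. Dox+FRG day 4 stood alone at 48.2 ± 0.381. Then came MEF10 MN+FRG (43.4 ± 2.48), FRG day 8 (42.9 ± 1.19) and Dox+FRG day 2 (40.2 ± 4.66), again overlapping in turn. GFP cells of day 10 had 31.6 ± 1.04 and day 0 fibroblasts 29.7 ± 0.0359, close but without overlap. GFP cells of day 8 had 17.7 ± 0.979, which overlapped the 16.1 ± 4.12 of quiescent satellite cells. With 2 libraries a group, overlap here means only that the ranges of the 2 pairs cross.

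**Figure D2:**
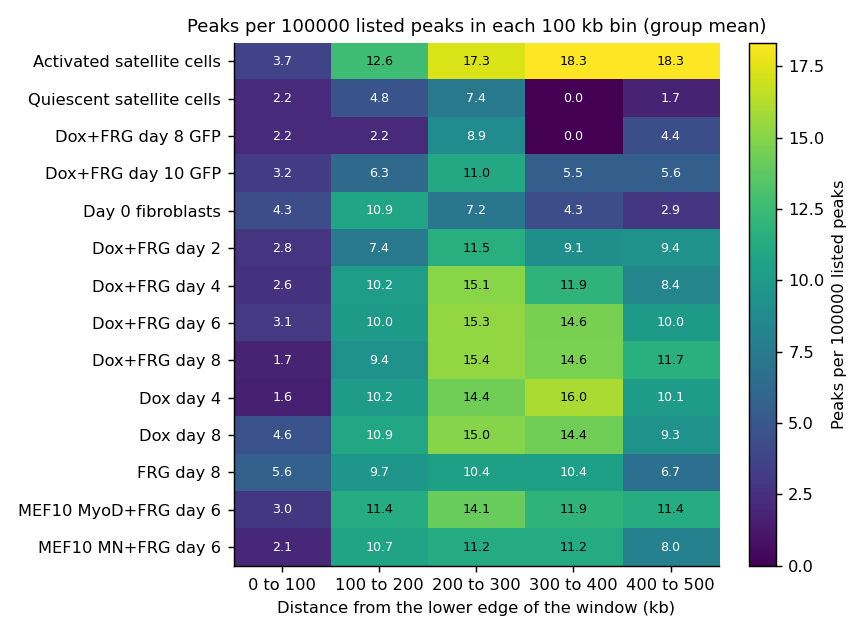
Group means of peaks per 100000 listed peaks (colour and printed value) in the 5 bins of 100 kb, by distance from the lower edge of the window in kb. The fourth bin is at 18.3 in activated satellite cells and at 0 in quiescent satellite cells and in day 8 GFP cells, and the third bin holds the highest value of both these low groups.

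Of the 102 regions, activated satellite cells called 31 in both libraries and 41 in at least 1. Quiescent satellite cells called 5 regions in both libraries and 11 in at least 1. Of the 32 regions called in both libraries of at least 1 of these groups, 24 (75%) were called in both activated and neither quiescent library, and 0 the other way round. Over the whole genome the same rule gave 26.2% of 56016 regions for activated over quiescent cells and 16.4% for quiescent over activated cells. The locus was chosen on this contrast, so nothing is read from the excess. Of all 11 regions with a call in quiescent cells, 1 had none in activated cells, and 4 regions were called in all satellite libraries.

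Counting from the lower bin, these 24 regions of activated and not quiescent cells fell 1, 4, 5, 8 and 6 to a bin, where the window had 12, 18, 25, 28 and 19 regions. In all lists but 1 most peaks had the same width, so whether the locus was 1 broad open block cannot be read from them. For regions merged over all 28 libraries, the median gap between neighbours in the window was 3131 bp and the widest 28297 bp. None of the 24 was confined to activated cells among the 14 groups, so each was also called somewhere in the fibroblast-derived cells. Over the whole genome, only 1.85% of all regions were called in activated cells alone. The share among all regions of activated and not quiescent cells was not taken, so nothing is read from this.

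**Figure D3:**
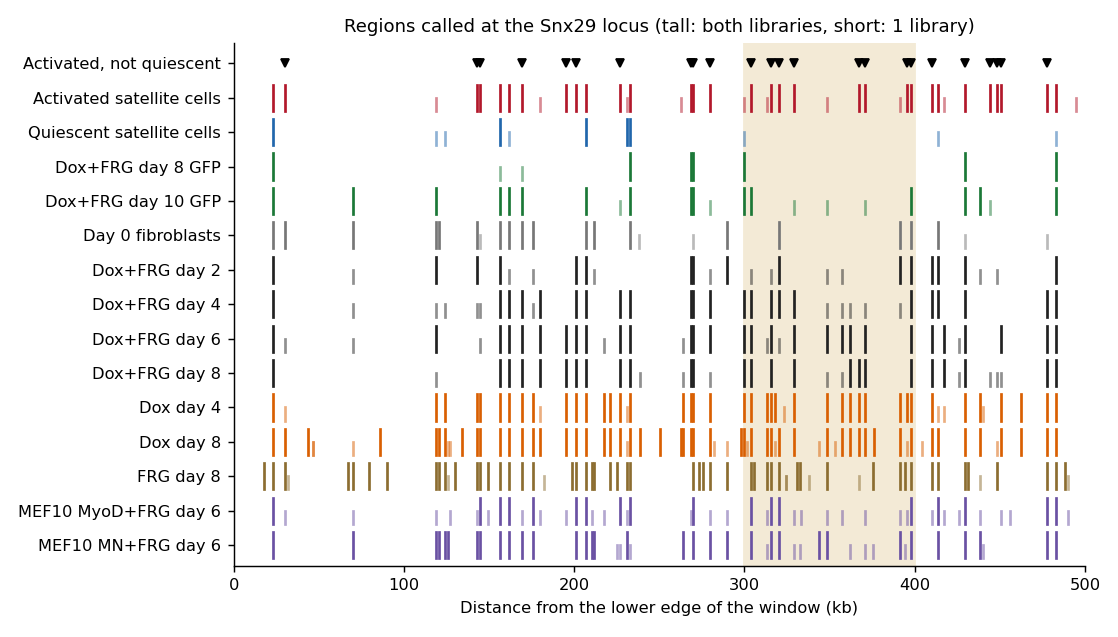
Regions called along the window (distance from its lower edge in kb) in each group, tall lines for a call in both libraries and short pale lines for 1 library. Triangles mark the 24 regions of activated and not quiescent satellite cells, and the shaded band is the fourth bin, empty of calls in quiescent cells except for 1 short line at its border, whose peak has its middle in the third bin.

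3 regions of the locus were called in at least 26 libraries. The region at 11322440 to 11324284 was called in all 28 libraries. The region at 11455620 to 11457205 was missing from 1 library of day 8 GFP cells. The region at 11505706 to 11507893 was missing from both libraries of day 8 GFP cells. Peaks wider than the common width of their list, called extended here, were most frequent at the first of these, with 20 libraries, and at the second, with 19. No extended peak of GFP cells was found at either, nor anywhere in the window. Unsorted Dox+FRG cells of days 6 and 8 had none at the first either, and quiescent cells had none at the second. Over their whole lists, GFP libraries had 6.48% to 8.64% extended peaks. They had only 8 to 21 peaks in the window, so nothing is read from the absence. At the other end, 16 regions were called in 1 library and 22 in 2. The shares of all regions called so widely or so rarely were not taken, so these counts only describe the locus.

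5 of the 24 regions of activated and not quiescent cells were already called in both day 0 libraries. The region at 11329659 to 11331111, the only one in the first bin, was called in both libraries of day 0, Dox day 8 and FRG day 8, and in no library of Dox+FRG days 2, 4 and 8. The region at 11442633 to 11443263 was called in both libraries of Dox+FRG day 2 and day 0, and in none of Dox+FRG days 6 and 8. The region at 11619802 to 11620632 likewise had both libraries of Dox+FRG days 2 and 4 and 0 of day 8. These 3 were fibroblast calls that the unsorted Dox+FRG culture no longer had at day 8. The region at 11468776 to 11469404 was called in 22 libraries, with both at days 0, 4, 6 and 8 and none at day 2. The region at 11697582 to 11698375 was called in 24, and in no library of day 8 GFP cells.

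4 regions had a call in 1 of the 2 day 0 libraries. The region at 11569143 to 11570950 was called in 25 libraries, every one but 1 day 0 library and both quiescent libraries. The region at 11728165 to 11730616 had the same 25 libraries by group, and extended peaks in both activated libraries. Among the 24, these were the most widely shared across the study. The region at 11776169 to 11779443 was called in 19 libraries and had extended peaks in 16 of them, both activated libraries included. Its span of 3275 bp equals the widest peak of MEF10 MyoD+FRG replicate 2 in the window, where activated peaks reached 889 and 953 bp. In unsorted Dox+FRG cells this region was absent at day 2 and called in both libraries from day 4 on, and no GFP library called it. The region at 11444267 to 11445059 was called in both libraries of Dox days 4 and 8, FRG and both MEF10 groups, and in no Dox+FRG day 8 library.

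The other 15 regions had no day 0 call. 3 of them were called in both libraries at each of Dox+FRG days 2, 4, 6 and 8, namely 11500014 to 11502151, 11568048 to 11568678 and 11709638 to 11710778. Only the second of these 3 was also called in GFP cells, in both libraries of days 8 and 10. A larger set was first called in both libraries at day 4, namely 11526851 to 11527483, 11579400 to 11580172, 11603663 to 11604586, 11615372 to 11616447 and 11627958 to 11630213. 4 of these 5 were still called in both libraries at day 8, and 11579400 to 11580172 in 1. Within the fourth bin, 11603663 to 11604586 and 11627958 to 11630213 were the regions of the 24 with the most extended peaks, in 9 libraries each, although in neither satellite group.

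Later calls were fewer. 3 regions were first called in both libraries at day 6, namely 11494936 to 11495435, 11670376 to 11671270 and 11750294 to 11750984. None of these was called in an FRG library. The region at 11666040 to 11668152 was first called at day 8, and was also called in both libraries of Dox days 4 and 8. Thus 12 of the 15 regions without a day 0 call reached both libraries of an unsorted Dox+FRG time point, where 62.2% of all regions of this kind did. The remaining 3 did not. The region at 11695280 to 11696211 was called in both Dox day 4 libraries and in no Dox+FRG library. The region at 11748042 to 11748269 was called in both FRG libraries and in 1 library each of Dox+FRG days 2 and 8. The region at 11743961 to 11744200 was the least shared of the 24, with 4 libraries: both of activated cells, 1 of day 10 GFP cells and 1 of Dox+FRG day 8.

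How often the 24 regions were open in other cells was read against all 14684 regions of activated and not quiescent cells in the genome. Day 8 GFP cells called 3 of the 24 in both libraries, against 20.5% of all such regions. Day 10 GFP cells called 6, against 34.7%. Day 0 fibroblasts called 5, against 41.9%. Day 8 GFP cells helped to choose the fourth bin for its empty state, and 8 of the 24 regions lie there, so their low share was favoured by the choice. By library, day 10 GFP cells called 33.3% and 37.5% of the 24, near the 38.1% and 40.6% of all such regions. For day 0, each library called 7 of the 24, or 29.2%, where they called 46.6% and 45.5% of all such regions.

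The unsorted Dox+FRG cultures called 8 of the 24 in both libraries at day 2 (background 34.5%), 14 at day 4 (54.9%), 16 at day 6 (55.0%) and 15 at day 8 (43.7%). By library, day 2 had 45.8% and 37.5% of the 24 and day 4 had 70.8% and 58.3%, near the shares of all such regions. Day 6 had 75% and 70.8%, against 61.1% and 61.5% of all such regions. Day 8 had 79.2% and 62.5%, against 58.5% and 45.7%. At day 6 and day 8 each library was thus above its own background. Unsorted day 8 cells helped to choose the fourth bin, where 8 of the 24 regions lie, so their share was favoured by the choice.

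Dox cultures called the most, 20 of the 24 in both libraries at day 4 (background 75.6%) and 21 at day 8 (84.0%). Their lists were long, and all such regions were called nearly as often. FRG cultures called 15 (48.2%), with 66.7% and 62.5% by library against 51.2% and 50.4% of all such regions. MEF10 MyoD+FRG called 10 (40.2%), with 41.7% in the library of the short list and 87.5% in that of the wide peaks. MEF10 MN+FRG called 12 (54.1%). No test was made of these shares, since neighbouring regions of 1 locus are not independent.

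**Figure D4:**
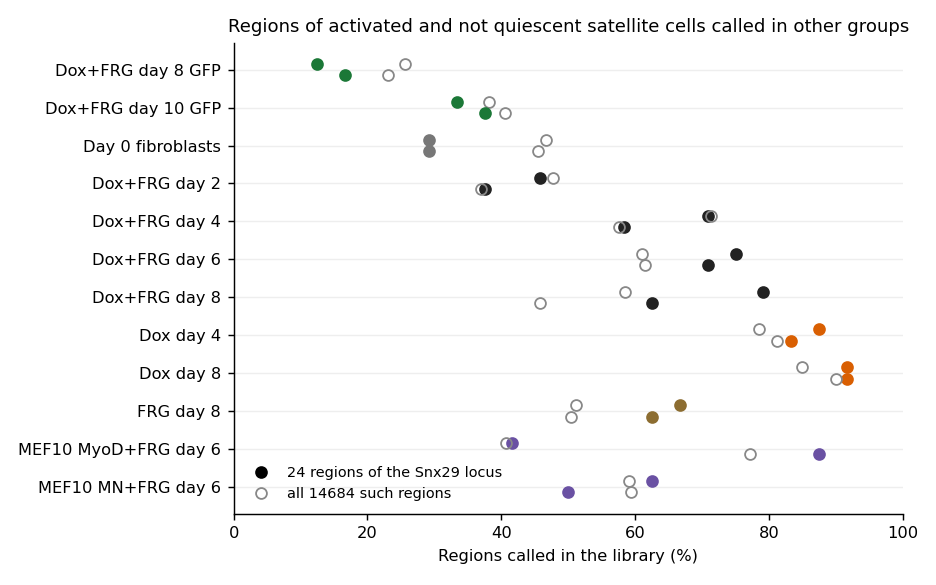
Share of the regions of activated and not quiescent satellite cells called in each library of the other groups (percent), filled points for the 24 regions of the Snx29 locus and open points for all 14684. Filled points lie left of the open ones in day 8 GFP cells (12.5% and 16.7%) and day 0 fibroblasts (29.2%), and right of them at Dox+FRG days 6 and 8.

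GFP cells of day 8 had few calls at the locus, although they came from the same Dox+FRG culture conditions as the unsorted cells. They had 8 and 8 peaks in the window, against 35 and 27 in unsorted cells of day 8. Per 100000 listed peaks this was 17.0 and 18.4 in GFP cells, against 52.2 and 53.4 in unsorted cells. The pairs did not overlap, and unsorted cells minus GFP cells, 35.1 per 100000, was again the highest of the 5084 windows. This contrast chose the fourth bin too, which had 0 peaks in both GFP libraries, against 9 and 8 in unsorted cells. Of 25 regions that GFP or unsorted cells called in both libraries, 0 were called in GFP cells alone (background 5.15%) and 16, or 64%, in unsorted cells alone (background 19.2%).

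By day 10 the GFP cells had more calls. The window held 19 and 21 peaks at day 10, against 8 and 8 at day 8, and 30.9 and 32.3 per 100000 listed peaks, against 17.0 and 18.4. The fourth bin had 3 and 4 peaks at day 10 and 0 at day 8. Of 16 regions, 7 (43.8%) were called at day 10 in both libraries and at day 8 in neither, where 16.8% of all regions were. The reverse held for 0 regions, where it held for 0.541% of all. Day 8 GFP cells were used to choose the fourth bin for its empty state, so a rise there was favoured by the choice. Outside the fourth bin, day 10 had 25.98 and 26.18 peaks per 100000 and day 8 had 17.0 and 18.4.

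Per 100000 listed peaks, the mean of day 10 GFP cells (31.6) lay between those of the satellite cell states. So did the mean of every other group, day 0 fibroblasts included (29.7), as activated cells stood highest and quiescent cells lowest. Against quiescent cells, 8 of 17 regions (47.1%) were called in day 10 GFP cells alone and 1 (5.88%) in quiescent cells alone, with backgrounds of 27.5% and 9.97%. Against activated cells, 2 of 35 regions (5.71%) were called in day 10 GFP cells alone and 14 (40%) in activated cells alone, with backgrounds of 26% and 15.9%. Against day 0, 5 of 25 (20%) were called in day 10 GFP cells alone and 9 (36%) in day 0 cells alone, with backgrounds of 23.6% and 28.5%. The last pair of shares was near the background in both directions, although without day 10 GFP replicate 1 the counts were 9 in day 10 GFP cells alone and 9 in day 0 cells alone. Both satellite comparisons reuse libraries on which the locus was chosen, so their shares are descriptions.

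In the unsorted Dox+FRG cultures, peaks per listed peak at the locus rose from day 0 to day 6. No untreated culture of a later day was among the groups, so treatment and time in culture cannot be told apart. The window held 21 and 20 peaks on day 0, then 26 and 17 on day 2, 34 and 25 on day 4, 33 and 36 on day 6, and 35 and 27 on day 8. Per 100000 listed peaks these were 29.7 and 29.6 on day 0, then 43.5 and 36.9 on day 2, 48.0 and 48.5 on day 4, 50.9 and 54.9 on day 6, and 52.2 and 53.4 on day 8. The pairs did not overlap up to day 6, and days 6 and 8 overlapped. By rank among the 5084 windows, the locus stood at 1249 on day 0, then 541 on day 2, 250 on day 4, 151 on day 6, and 212 on day 8.

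The relation with day was tested on the 4 bins outside the fourth, over the 10 unsorted libraries of days 0 to 8. These bins did not enter the choice of the locus directly, but they adjoin the fourth bin. By Dox+FRG day 8 minus day 0 in the whole window, the locus ranked 32 of 5084. A rise toward day 8 may thus have been favoured by the choice, and the p-values are not independent of it. Peaks per 100000 listed peaks rose with day, with Pearson's r = 0.90 (permutation p = 0.00065, 100000 resamples, two-sided) and Spearman's rho = 0.81 (permutation p = 0.00744). Adjusted by Benjamini-Hochberg over 3 tests, these were 0.00195 and 0.0112. Without the 2 libraries of day 0, r was 0.79 (permutation p = 0.0266), and without the 2 of day 8, which had a part in choosing the locus, r was 0.94 (permutation p = 0.00161). Raw peak numbers gave a weaker relation, r = 0.68 (permutation p = 0.0406). Extended peaks alone, per 100000 extended peaks listed, gave the other sign with r = -0.23 (permutation p = 0.517). All 10 libraries carry the same fibroblast label, and whether they stem from 1 culture or several is not stated.

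**Figure D5:**
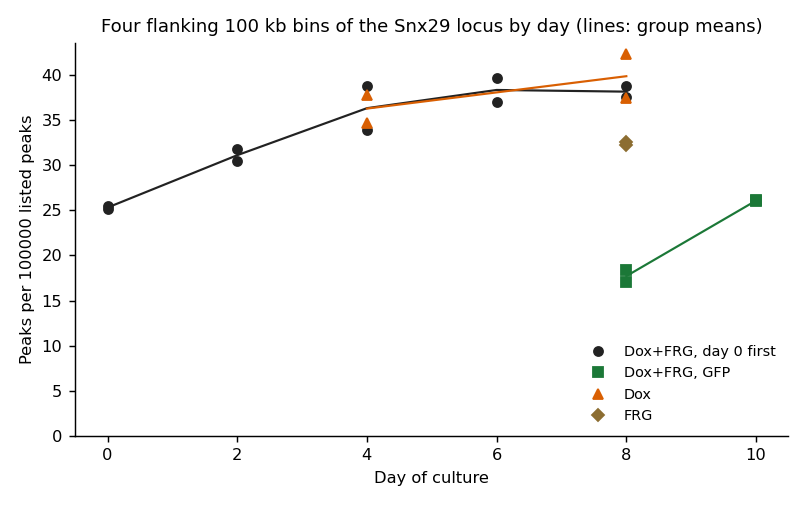
Peaks per 100000 listed peaks in the 4 bins outside the fourth, by day of culture. Points are libraries and lines join group means. The Dox+FRG points climb between day 0 and day 6. Those of Dox lie among them, except for day 8 replicate 1 at 42.3, above every other point. FRG lies lower at day 8. GFP cells lie at 17.0 and 18.4 on day 8, and at 25.98 and 26.18 on day 10, near the day 0 points.

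By region, the calls at day 8 held regions absent at day 0 and lacked others present then. At day 2, 4 of 24 regions (16.7%) were called in Dox+FRG cells alone and 4 (16.7%) in day 0 cells alone, with backgrounds of 7.75% and 23.0%. At day 4, 11 of 32 (34.4%) were called in Dox+FRG cells alone and 4 (12.5%) in day 0 cells alone, with backgrounds of 16.4% and 22.4%. At day 6, 18 of 39 (46.2%) were called in Dox+FRG cells alone and 7 (17.9%) in day 0 cells alone, with backgrounds of 22.3% and 25.4%. At day 8, 15 of 36 (41.7%) were called in Dox+FRG cells alone and 10 (27.8%) in day 0 cells alone, with backgrounds of 20.0% and 30.6%. For the lists as deposited, the share called in Dox+FRG cells alone was above the background at each day, and the share called in day 0 cells alone was below it, by about 1 region at day 8. At day 2 the counts turned on single libraries, with 5 in Dox+FRG and 8 in day 0 cells alone without Dox+FRG replicate 1, and 10 in Dox+FRG and 4 in day 0 cells alone without its replicate 2. At day 4 they were 11 in Dox+FRG and 8 in day 0 cells alone without Dox+FRG replicate 1, and 16 in Dox+FRG and 5 in day 0 cells alone without its replicate 2. At day 8 they were 23 in Dox+FRG and 10 in day 0 cells alone without Dox+FRG replicate 2. These comparisons share the day 0 libraries and are not independent of each other.

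Of the 18 regions called in both day 0 libraries, 4 were called in both libraries at every later day, and 10 were called in neither library of day 8. Of these 10, 4 were called in both activated satellite libraries. Of the 15 regions called at day 8 and not at day 0, 4 were first called in both libraries by day 2, another 6 by day 4, 4 by day 6, and the last 1 by day 8. An activated satellite library called 14 of these 15, where 56.8% of all regions called at day 8 and not at day 0 had such a call. A quiescent library called 2, where 33.0% of all did. No share over all regions was taken for the fate of the 18 regions or for the split by first day. Activated, quiescent and day 8 libraries all had a part in choosing the locus, so nothing is read from any of these counts.

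The bins did not move alike in this course. The first bin had 1 and 1 peaks at day 8, against 3 and 3 at day 0. The second had 6 and 5 peaks at day 8, against 7 and 8 at day 0. The third had 10 and 8 peaks at day 8, against 6 and 4 at day 0. The fourth had 3 and 3 peaks on day 0, then 7 and 3 on day 2, 10 and 5 on day 4, 9 and 10 on day 6, and 9 and 8 on day 8. The fifth had 9 and 5 peaks at day 8, against 2 and 2 at day 0. In net raw numbers the upper 3 bins thus had more peaks at day 8 than at day 0 and the lower 2 fewer. Per 100000 listed peaks the second bin had 8.95 and 9.88 at day 8, against 9.89 and 11.85 at day 0, so the pairs nearly met. Single regions of the second bin, such as 11494936 to 11495435, were also called at day 8 and not at day 0.

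Dox cultures also had more calls at the locus than day 0 cells. No untreated culture of day 4 or 8 was among the groups, so doxycycline, basic FGF and time in culture cannot be told apart here. Dox cultures had 49 and 49 peaks at day 4 and 64 and 65 at day 8, against 21 and 20 at day 0. Per 100000 listed peaks these were 54.5 and 50.1 at day 4 and 58.9 and 49.7 at day 8, against 29.7 and 29.6 at day 0. At day 4, 26 of 48 regions (54.2%) were called in Dox cells alone and 5 (10.4%) in day 0 cells alone, with backgrounds of 34.0% and 15.0%. At day 8, 33 of 55 (60%) were called in Dox cells alone and 1 (1.82%) in day 0 cells alone, with backgrounds of 39.7% and 6.63%. The shares called in Dox cells alone were above the background at both days for the lists as deposited. Each list was also drawn once at random to the length of the shortest. At day 4 the counts were then 7 in Dox cells alone and 5 in day 0 cells alone. At day 8 they were 5 in Dox cells alone and 6 in day 0 cells alone, a net count of the other sign. Dox lists, at 89871 to 130916 peaks, lost a larger part in the draw than day 0 lists, at 70756 and 67502. Calls in both Dox libraries would thus fall more from list length alone, and no genome share was taken under the draw. The draw therefore decides nothing about the locus itself.

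FRG cultures likewise had more calls than day 0 cells, and here the small molecules and time in culture cannot be told apart. FRG cultures of day 8 had 59 and 56 peaks, against 21 and 20 at day 0, and 43.7 and 42.0 per 100000 listed peaks, against 29.7 and 29.6. Of 52 regions, 30 (57.7%) were called in FRG cells alone and 0 in day 0 cells alone, with backgrounds of 43.0% and 4.49%. The first bin held 7 and 8 peaks in FRG cells, the most of any group, against 3 and 3 at day 0. Directly compared, 22 of 76 regions (28.9%) were called in Dox day 8 cells alone and 20 (26.3%) in FRG day 8 cells alone. The backgrounds were 22.3% and 29.0%, so the locus was near them in both directions.

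Dox+FRG cultures had fewer peaks than Dox cultures and nearly the same number per listed peak. In the 4 bins outside the fourth, over days 4 and 8, Dox+FRG libraries averaged 37.3 ± 2.34 peaks per 100000 listed peaks and Dox libraries 38.1 ± 3.15 (SD, n = 4 each). The difference of -0.83 did not pass a two-sided exact permutation test (p = 0.829, adjusted 0.829, with 0.0286 the smallest p of 70 arrangements), which does not show that they are alike. Peaks not scaled to the list averaged 22.3 ± 3.30 in Dox+FRG and 40.8 ± 7.89 in Dox libraries, a difference of -18.5 with the smallest p that the exact permutation test allows (0.0286). Dox lists held 89871 to 130916 peaks, and Dox+FRG lists of these days 50608 to 70877, so list length moved with this difference. Dox+FRG libraries of day 8 also had a part in choosing the locus, so neither test is independent of the choice.

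Calls by region also followed the background. At day 4, 1 of 44 regions (2.27%) was called in Dox+FRG cells alone and 11 (25%) in Dox cells alone, with backgrounds of 2.91% and 25.1%. At day 8, 1 of 53 (1.89%) was called in Dox+FRG cells alone and 21 (39.6%) in Dox cells alone, with backgrounds of 1.94% and 39.6%. All 4 shares were at the background. Against FRG at day 8, 9 of 62 regions (14.5%) were called in Dox+FRG cells alone and 33 (53.2%) in FRG cells alone, with backgrounds of 8.98% and 55.7%.

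In MEF10 cells, MyoD+FRG had 19 and 48 peaks and MN+FRG 42 and 39. Per 100000 listed peaks these were 50.9 and 52.5 in MyoD+FRG and 45.1 and 41.6 in MN+FRG, without overlap. Of 35 regions, 0 were called in MyoD+FRG alone (background 3.76%) and 6 (17.1%) in MN+FRG alone (background 24.8%). The counts depended on which MyoD+FRG library was used. Without the MyoD+FRG library of the short list, replicate 1, the net count turned to 10 more in MyoD+FRG, and without replicate 2 it was 17 more in MN+FRG, where both libraries gave 6 more in MN+FRG.

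The window has edges that the rule set and the data did not. The first region inside it, at 11317627 to 11317689, lay 17626 bp from the lower edge and was called in both FRG libraries and in no other. The last, at 11794888 to 11795069, lay 4931 bp from the upper edge and was called in 1 activated library. The nearest region below the window, at 11297916 to 11298058, was 1942 bp away and was called in both libraries of Dox day 8, FRG and MEF10 MN+FRG. The nearest region above lay 2042 bp from the edge and was called in all 4 satellite libraries and in no other.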

How the data were processed

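ATAC-seq peak lists of 28 mouse libraries were used. The deposited values are other data than counts or signal: each list made by the authors gives peak positions of 1 library (chromosome, start, end), and the submitters' processing notes name BWA, HOMER and mm9. The roles and versions of these tools, the threshold, filters and read shifts are not stated there. Libraries were amplified for 13 PCR cycles and kept fragments of 100 to 1000 bp, per the labels' protocols. Sequencing depth is unknown, so no counting interval is given.

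Groups came from the sample labels. Peaks overlapping the window by at least 1 bp were counted, placed in 5 bins of 100 kb by their middle, and divided by list length. Regions were merged over all libraries. A region counted for a comparison when both libraries of at least 1 group called it, and as called in 1 group alone when neither library of the other did. The background is the same share over the genome. The members and lists were chosen with earlier results of these data known. Dox day 8 against FRG day 8 was added after the lists were seen. Named regions were those called in both activated and no quiescent libraries, or the reverse, those in at least 26 libraries, and those at the window's edges, at most 30, so the region above the upper edge is given without coordinates. The 3 bins most like the fourth, by Pearson's r among bins with a mean of at least 3 peaks, were also named.

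Permutation tests used scipy 1.17.1 and numpy 2.4.6 under Python 3.11.15, with p-values adjusted by Benjamini-Hochberg and a threshold of 0.05. Figures used matplotlib 3.10.9. The counting was tested on simulated data. Alternatives were raw counts, covered bases, autosomes alone, extended peaks alone, other merging and overlap (50% of the shorter peak), random draws to 37301 peaks a list, left-out libraries and a replicate block. Comparisons with day 0 share its libraries. No mm9 sequence or annotation was used.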

Additional observations from a re-analysis of the deposited data

How the results depend on the processing

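With raw peak numbers, the log2 ratio in the window was -1.95 for GFP over unsorted cells at day 8 (main -1.58), 0.60 for Dox+FRG day 8 over day 0 (0.83), -1.06 for Dox+FRG over Dox at day 8 (-0.04), 1.65 for Dox day 8 over day 0 (0.87) and 1.49 for FRG day 8 over day 0 (0.53). Covered bases gave -1.77 for GFP over unsorted cells and 0.67 for Dox+FRG day 8 over day 0. Extended peaks alone gave 0.47 for Dox+FRG day 8 over day 0, -0.23 for Dox+FRG over Dox and 0.66 for FRG over day 0, and a fourth-bin difference of 0 between activated and quiescent cells (main 10). The ratio of activated to quiescent cells, 2.13, stayed between 1.83 and 2.41 under all its alternatives.

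Net counts of regions (called in the first group alone minus the second alone) moved with the number of peaks entered. With extended peaks alone they were 2 for activated over quiescent cells (main 24), -1 for GFP over unsorted cells at day 8 (-16), 0 for GFP day 10 over day 8 (7), 0 for Dox+FRG day 8 over day 0 (5), 6 for Dox day 8 over day 0 (32), 14 for FRG over day 0 (30), -5 for Dox+FRG over Dox at day 8 (-20), -1 for GFP day 10 over quiescent cells (7) and 1 for MEF10 MyoD+FRG over MN+FRG (-6). After 1 random draw of each list to the shortest they were 11, -8, 3, 2, -1, 2 and 4 for the first 7 in that order. The draw also gave 1 for Dox+FRG over Dox at day 4 (-10) and 4 for Dox+FRG over FRG (-24), and 10 regions in either direction between Dox and FRG at day 8 (42). It took more from longer lists, so their counts would fall from list length alone. Regions merged from the 4 libraries compared gave 9 for Dox+FRG day 8 over day 0. Leaving out 1 library gave -25 to -17 for GFP over unsorted cells at day 8, with -25 without replicate 2 of the unsorted cells, 8 to 11 for GFP day 10 over day 8 and 5 to 13 for Dox+FRG day 8 over day 0. The value of 13 came without replicate 2 of Dox+FRG day 8. The cause was not tested.

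Outside the fourth bin, Dox+FRG minus Dox (-0.83) was 0.046 at day 4 alone (p = 1, exact permutation test), 19.6 with extended peaks alone per 100000 of these (p = 0.0571, exact permutation test), -18.5 with raw numbers (p = 0.0286, exact permutation test), and -1.95 to 0.58 with 1 library left out. It was above 0 without Dox+FRG day 4 replicate 1 (0.30) or Dox day 8 replicate 1 (0.58). In the whole window the log2 ratio of Dox+FRG to Dox at day 8 was -0.16 to 0.088 with 1 library left out. The relation with day (r = 0.90) was -0.23 with extended peaks alone. It kept its sign and its side of the threshold in all other alternatives run, with r of 0.87 to 0.95 with 1 library left out. With raw peak numbers it was weaker, r = 0.68 (permutation p = 0.0406). Same-numbered libraries deviated together little (21 pairs of groups, correlations -0.012 to 0.11), which does not exclude a pairing. Replicate 2 had the shorter list at Dox+FRG days 2, 4 and 8 (46017, 51536 and 50608 peaks). Replicate 1 had 59721, 70877 and 67026 there, while at day 6 the lists were near level (64823 and 65516). With a replicate block, r was 0.90 (permutation p = 0.00167) and the difference -0.83 (exact permutation p = 1). For MEF10, leaving out MyoD+FRG replicate 1 gave 10. Peak lists have no heights, so a region not called may be open below the threshold.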

Other observations

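Some regions of the locus were called in 1 group alone among the 14. FRG day 8 had 18 such regions, 13 of them in both libraries, and Dox day 8 had 12, with 6 in both. MEF10 MyoD+FRG had 2, activated satellite cells, day 0 and Dox day 4 had 1 each, and the other groups had 0. As a share of the regions, this was 17.6% for FRG, against 16.2% over the whole genome, and 11.8% for Dox day 8, against 6.46%. FRG and Dox day 8 were also the groups with the 4 longest lists of the study.

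Bins elsewhere in the genome had a course over the libraries like that of the fourth bin. Among 10311 bins of 100 kb, the highest Pearson's r over 28 libraries, in peaks per 100000 listed peaks, was 0.89 on chromosome 5 from 43400001 to 43500000. Next were chromosome 3 from 19100001 to 19200000 (r = 0.85) and chromosome 1 from 106800001 to 106900000 (r = 0.84). The bin on chromosome 5 had 8 and 8 peaks in activated satellite cells and 0 in both quiescent libraries, and 0 in both day 8 GFP libraries, against 7 and 5 in unsorted cells of day 8. The libraries share their lists' lengths and cell sources, and these r values are the highest of a search over all bins, with no test. With raw peak numbers, 0 of these 3 bins stayed among the 3 highest, and without MEF10 MyoD+FRG replicate 2 there were 2.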
